A study of Homo sapiens with 4 samples.

Results

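The genes described here are CTNNB1, which encodes β-catenin, and the core of the canonical Wnt pathway around it: APC, AXIN1, AXIN2, GSK3B, TCF7L2, LRP5, LRP6, DVL1 and FZD6. They were chosen by name, as all rows of the deposited transcript table whose gene symbol is one of these 10. The table held 35 transcripts of 9 of them, out of 43596 transcripts of 15113 gene symbols. TCF7L2 had no row and is not analysed here. RNA came from MDA-MB-231, a human triple-negative breast cancer cell line, in 2 groups of 2 libraries each: cells given DMSO, the solvent, and cells given 10 µM KH-3, an inhibitor of the RNA-binding protein HuR, both for 24 h. Both groups are the same line, so all results are for 1 line in culture.

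The study asked which transcripts change when HuR is inhibited. The table gives 1 measured level per transcript, the authors' mean normalized read count over the libraries, and it does not say which libraries entered that mean. The study's methods also name a lower dose of KH-3, which is not among the samples analysed here. DMSO and KH-3 levels therefore cannot be told apart in it. The table's other measured columns are the authors' own comparison of the groups and are not used here. What follows is a description of how much of each Wnt core transcript these cells held across the experiment, with no spread, no test and no statement on the effect of KH-3. The depth of each library is unknown, and no transcript with a mean normalized read count under 7.34 was listed.

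In canonical Wnt signaling, a secreted Wnt protein binds a Frizzled receptor and the co-receptors LRP5 or LRP6 on the cell surface. Without this signal, a destruction complex built on APC and Axin holds β-catenin while the kinases GSK3 and casein kinase 1 mark it for degradation. The signal, passed on through Dishevelled, stops the complex, and β-catenin then enters the nucleus and works with TCF/LEF factors on target genes, AXIN2 among them. β-catenin also links cadherins to the actin skeleton at cell contacts, so its mRNA serves more than one role.

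The cell line label was checked against its markers. VIM (vimentin), a mesenchymal filament gene, had a level of 10135 reads per kb of transcript (3786 over protein-coding transcripts alone), and CAV1 (caveolin) had 2599. The epithelial keratins KRT18 and KRT8 were also above the median gene, at 5378 and 384 (3542 and 331 over protein-coding transcripts alone). CD44 was above it too, at 427. EPCAM, an epithelial adhesion gene, was at 43.3 and ERBB2 at 44.3, both below the median gene. CDH1, ESR1 and PGR had no row. The epithelial genes of the list thus did not all lie low. Here and below, the level of a gene is the sum over its listed transcripts of the authors' mean normalized read count divided by transcript length in kb, and the median over all 15113 genes was 108. Mitochondrial genes held 6.37% of all mean normalized read counts.

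CTNNB1 had the highest level of the 9 genes and AXIN2 the lowest. The level of CTNNB1 was 1237 reads per kb, which was 11.4 times the median gene and placed it at percentile 94.2, with 882 genes above it. AXIN2 was at 18.9 reads per kb and percentile 19.7. The other 7 genes lay between, all above the median gene, and the median of the 9 was 310. CTNNB1 thus stood 65.6 times above AXIN2, its own pathway target, on this scale.

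**Figure D1:**
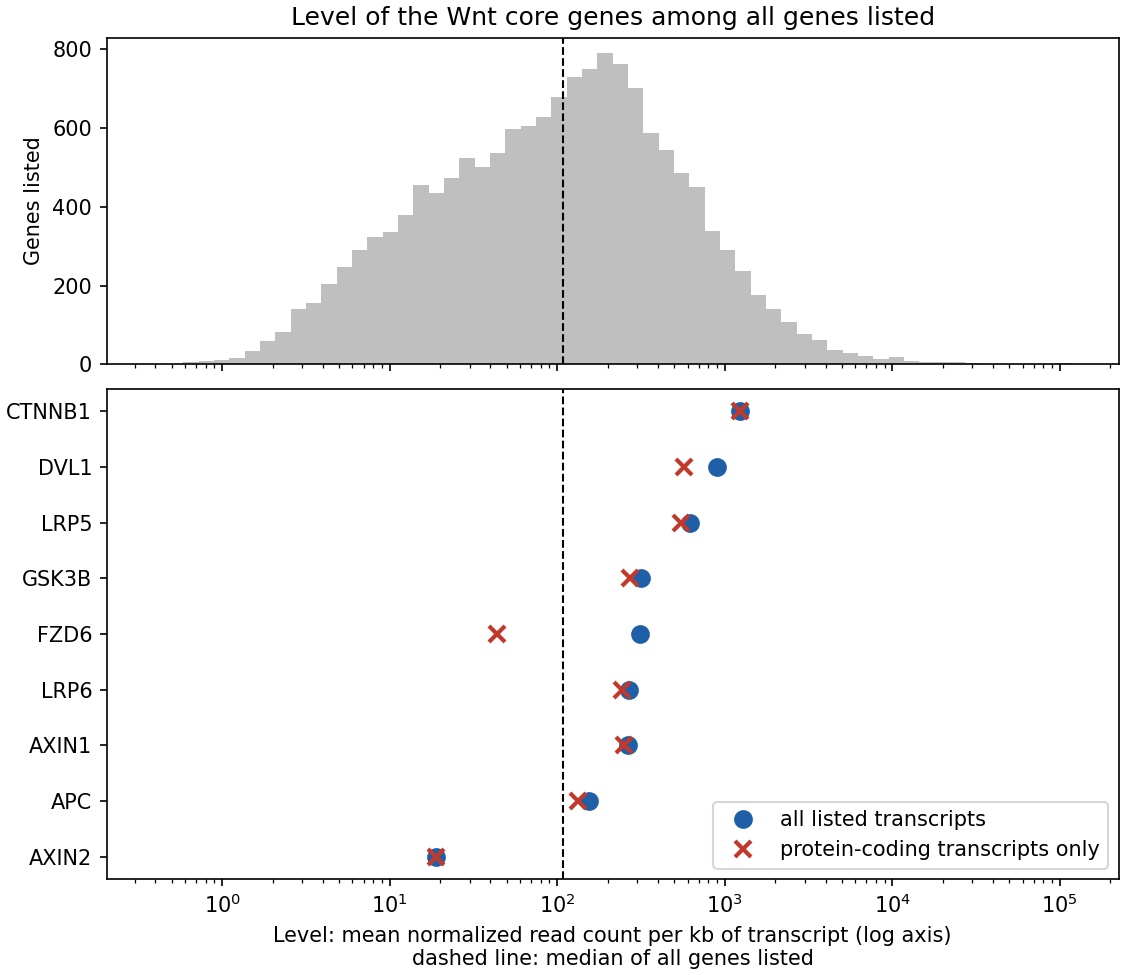
Upper panel, number of genes by level (mean normalized read count per kb of transcript, log axis). Lower panel, the 9 Wnt core genes on the same axis, with circles for all listed transcripts and crosses for protein-coding transcripts only. AXIN2 alone lies below the median of 108 with all transcripts, and FZD6 falls from 310 to 43.5 when only protein-coding transcripts are counted.

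Below CTNNB1, the order was DVL1 at 895 reads per kb, LRP5 at 620, GSK3B at 315, FZD6 at 310, LRP6 at 269, AXIN1 at 266, APC at 155 and AXIN2 at 18.9. No spread over libraries is known, so none of these neighbours can be said to differ. The gaps between GSK3B and FZD6 (1.02 times) and between LRP6 and AXIN1 (1.01 times) were the smallest, and both pairs changed places under another way of counting. CTNNB1, DVL1 and LRP5 held the first 3 places, and AXIN2 the last, under all 4 alternatives tried.

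β-catenin itself came first. CTNNB1 lies on the plus strand at chr3:41194741-41260096 (hg38) and had 4 listed transcripts. The transcript ENST00000349496.9 had a mean normalized read count of 4015, ENST00000396185.7 of 385, and ENST00000396183.7 of 128. The retained-intron transcript ENST00000482042.1 held 0.709% of the level. Almost all of the level was therefore protein-coding (99.3%), and 86.8% of it lay in 1 transcript. The 3 protein-coding transcripts share 1 coding sequence of 2343 bases in GENCODE release 44 and differ in their untranslated parts. Their 3′UTRs are 1101, 796 and 637 bases long. Compared with the leading transcript, the second skips 305 bases of the 3′UTR (chr3:41239355-41239659) and the third skips 464 (chr3:41239355-41239818). The β-catenin mRNA of these cells was thus mostly assigned to the form with the longest 3′UTR.

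HuR is known for binding U-rich and AU-rich stretches in 3′UTRs, and the pentamer AUUUA is a common letter code for AU-rich elements. The 3′UTRs of the core genes were therefore searched for it in the protein-coding transcript of each gene with the largest mean normalized read count, on the transcribed strand only. The windows below show the CTNNB1 match, the DVL1 cluster, every match of AXIN2 and LRP5, and the APC and GSK3B matches that lie in the longer UAUUUAU, as RNA from 5′ to 3′. They are from GENCODE release 44 on hg38, and capitals mark AUUUA or overlapping copies of it.
CTNNB1, chr3:41239881-41239907, plus strand: cacaagauggaAUUUAucaaacccuag
DVL1, chr1:1335723-1335751, minus strand: gggaucuaAUUUAUUUAUUUAuugccugg
AXIN2, chr17:65529741-65529767, minus strand: aagccugaacuAUUUAuuaaaaacaug
AXIN2, chr17:65529591-65529617, minus strand: uccuuacugauAUUUAuagaacaguug
AXIN2, chr17:65528626-65528652, minus strand: auaaagaguucAUUUAaggaaaauuac
LRP5, chr11:68449139-68449165, plus strand: uauauuuuaugAUUUAaaaaauaaaua
LRP5, chr11:68449236-68449262, plus strand: aguggagaaauAUUUAuaaacuuaauu
APC, chr5:112844513-112844539, plus strand: gaaaaauugguAUUUAugcaaaaaaaa
GSK3B, chr3:119826246-119826272, minus strand: uaucuucggguAUUUAuagacuugccu
GSK3B, chr3:119825614-119825642, minus strand: ugcuuuuuacAUUUAUUUAuugaugcaug

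Of the 9 genes, 8 had at least 1 AUUUA, 54 in all, against 72.8% of 11600 genes with a listed protein-coding transcript and a 3′UTR in the reference. CTNNB1 had 1 match, in a 3′UTR that is 66.3% A and U, and it lies outside the stretches that the shorter CTNNB1 forms skip, so each form carries it. AXIN1 was the gene without a match, and its 3′UTR of 681 bases is 40.5% A and U. DVL1 had 3 overlapping copies in 1 cluster although its 3′UTR is only 37.0% A and U. LRP6 had the most, with 20 in 5101 bases, followed by GSK3B with 12 in 5467 bases.

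Since a longer 3′UTR has more room for a match, the counts were also set per kb. LRP5 then stood highest, at 9.76 matches per kb of a 3′UTR of 205 bases, and CTNNB1 was at 0.908, below the median of all genes of 1.73. The median of the 9 genes was 3.11. The heptamer UAUUUAU, each of which holds an AUUUA, was present in 7 of the 9 genes and in 35.1% of all genes, and CTNNB1 and AXIN1 were the genes without it. A match is a string of letters and not evidence of HuR binding, and few matches do not show a lack of binding. U-rich stretches without AUUUA were not searched for. The study names β-catenin mRNA as one that HuR binds directly in this line. The 3′UTRs come from release 44, and for 4 of the 9 transcripts the length there equals that of the table, while that of CTNNB1 is 3661 against 3737 bases.

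**Figure D2:**
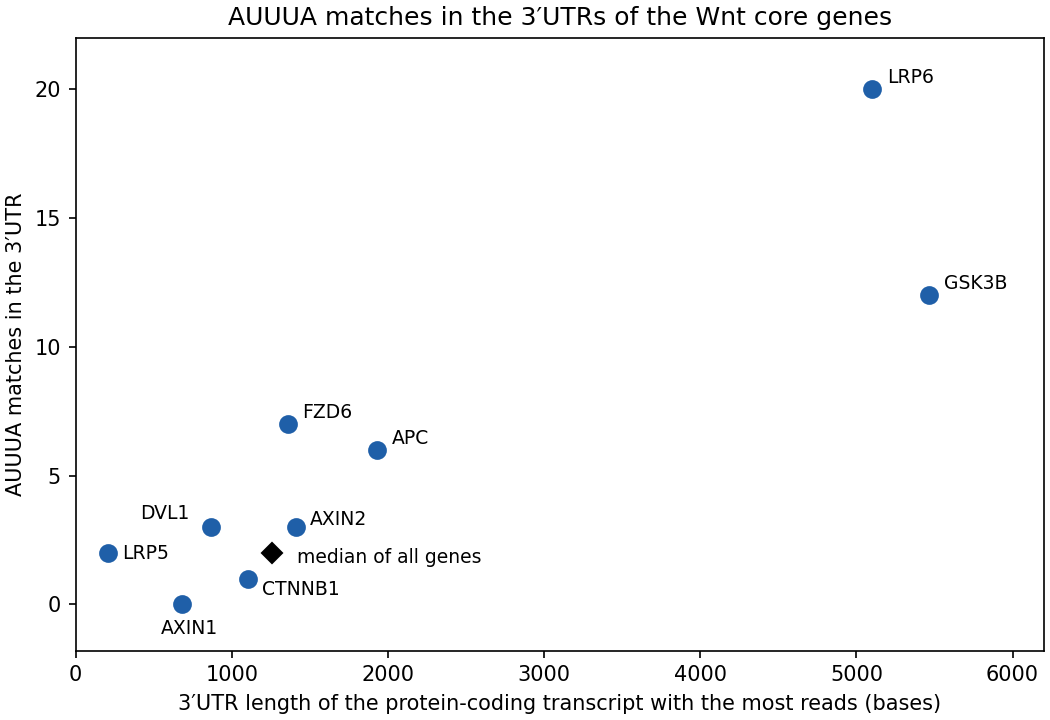
Number of AUUUA matches (vertical axis) against 3′UTR length in bases (horizontal axis) for the protein-coding transcript with the largest mean normalized read count of each of the 9 Wnt core genes, with the median of 11600 genes as a diamond. LRP6 and GSK3B have the longest 3′UTRs and the most matches, 20 and 12, while CTNNB1 has 1 and AXIN1 has 0.

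Among the receptors, the co-receptor LRP5 was 2.30 times the level of its paralog LRP6. LRP5 lies on the plus strand at chr11:68312591-68449275. Its transcript ENST00000294304.11 had a mean normalized read count of 2702, and each of the other 4 had 46.0 or less. LRP5 was therefore nearly a 1-transcript gene by reads (96.6%). LRP6, on the minus strand at chr12:12116025-12267044, had 1591 for ENST00000261349.8, 262 for ENST00000543091.1, 193 for the nonsense-mediated-decay transcript ENST00000538239.5 and 17.4 for ENST00000535731.1. The second of these lacks 135 coding bases, or 45 codons, of the first (chr12:12131923-12132057). It also lacks 5068 exon bases at the 3′ end (chr12:12116025-12121092). Its 3′UTR in release 44 is thus only 33 bases long and holds 0 AUUUA matches. All of its exon bases (100%) also lie in the first form, so reads were shared between these forms. How far their division sets its count was not tested. The nonsense-mediated-decay class is for transcripts with an early stop codon, which cells usually destroy.

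FZD6, the Frizzled receptor with the highest level of the 8 with a row, differed from the other core genes in the kind of transcript that led it. The gene lies on the plus strand at chr8:103298433-103332866. The transcript ENST00000522484.5, of the nonsense-mediated-decay class, had a mean normalized read count of 973, and the protein-coding ENST00000358755.4 and ENST00000522566.5 had 136 and 28.3. The nonsense-mediated-decay class thus held 86.0% of the FZD6 level, while in each of the other 8 genes a protein-coding transcript led. Over all 12120 genes with a protein-coding row, 444 (3.66%) were led by a transcript of this class.

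The FZD6 transcripts are hard to separate by reads. In release 44 the ENST00000522484 form skips 1 stretch of 149 exon bases of ENST00000358755 (chr8:103328268-103328416), adds 67 bases at another exon and shares 98.2% of its bases with it. Its annotated coding part is 1401 bases against 2118. Counted over protein-coding transcripts alone, FZD6 had a level of 43.5 reads per kb. That was percentile 28.0 of the 12120 genes with a protein-coding row, in place of 74.6 of all 15113 genes. It was then below FZD4 at 159, FZD2 at 114, FZD7 at 86.6 and FZD1 at 50.9. How eXpress divided the shared reads, and how far it sets this ratio, was not tested.

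Dishevelled carries the signal from the receptors to the destruction complex. DVL1 lies on the minus strand at chr1:1335276-1349418 and had 6 listed transcripts. ENST00000378891.9 had a mean normalized read count of 1546, the 3 retained-intron transcripts had 83.2, 81.1 and 54.9, and the remaining protein-coding ones had 29.7 and 24.9. The retained-intron transcripts are short, 580 to 828 bases, so they held few of the reads but much of the level per kb, and the protein-coding share was 87.9% of the reads and 64.0% of the level. Without them the level of DVL1 was 573 in place of 895. Its paralogs DVL2 and DVL3 were at 427 and 411 reads per kb with all transcripts, and at 335 and 159 with protein-coding transcripts alone.

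In the destruction complex, the scaffold AXIN1 was 14.1 times the level of its inducible paralog AXIN2. AXIN1, on the minus strand at chr16:287440-352723, had mean normalized read counts of 721 for ENST00000354866.7, 126 for ENST00000262320.7 and 91.2 for the retained-intron transcript ENST00000461023.5. AXIN2, on the minus strand at chr17:65528563-65561648, had 53.7 for ENST00000618960.4 and 24.0 for ENST00000307078.9. Both paralogs were thus led by the shorter of their 2 protein-coding forms. The leading AXIN1 form lacks 108 coding bases, or 36 codons (chr16:291190-291297), and the leading AXIN2 form lacks 195, or 65 codons (chr17:65536869-65537063). In release 44 all exon bases (100%) of each leading form also lie in the longer one, so the reads of both paralogs were shared between forms.

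APC, the large scaffold that is lost in many colon cancers, lies on the plus strand at chr5:112707518-112846239. Its level was 155 reads per kb, 1.43 times the median gene, and 65.7 with its largest transcript alone. ENST00000508376.6 and ENST00000257430.8 shared its reads, with mean normalized read counts of 698 and 561. These 2 have the same coding sequence of 8529 bases, and 98.7% of APC reads lay in protein-coding transcripts. The other 3 APC transcripts had 12.1 or less, but held 9.52%, 9.51% and 4.74% of the level per kb. Their listed lengths are 817, 573 and 1212 bases, against 9496, 10920 and 3780 in release 44. With a mean normalized read count of 20 or more, which leaves these 3 out, the level of APC was 118.

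The kinase gene GSK3B lies on the minus strand at chr3:119821321-120094994 and had a level of 315 reads per kb. Its transcript ENST00000264235.12 had a mean normalized read count of 874, ENST00000316626.5 had 258 and the processed transcript ENST00000473886.1 had 19.3. Which form leads depends on the scale. By reads the first held 75.9%, but per kb the second held 50.0% and the first 36.0%, since the table gives them 7711 and 1636 bases. With the largest transcript by reads alone, the level of GSK3B was 113 in place of 315. The second form carries 39 more coding bases, an insert of 13 codons (chr3:119866590-119866628). In release 44 the same transcript is 7000 bases long, with nearly the same 3′UTR as the first, so its level per kb rests on the older, shorter model.

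Set against 3 core genes of the complex that degrades its protein, CTNNB1 mRNA was 3.93 times GSK3B, 4.65 times AXIN1 and 7.98 times APC. Over protein-coding transcripts alone these ratios were 4.54, 4.88 and 9.24. With the largest transcript of each gene alone they were 9.48, 4.95 and 16.3, so GSK3B and AXIN1 changed order. CTNNB1 was above all 3 each time. The casein kinase gene CSNK1A1, not among the core genes, was 1.01 times the level of CTNNB1 with all transcripts. It was 0.940 times CTNNB1 over protein-coding transcripts alone and 0.253 times with the largest transcript of each gene alone. These are ratios of mRNA, with no error that can be given, and say nothing about protein.

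**Figure D3:**
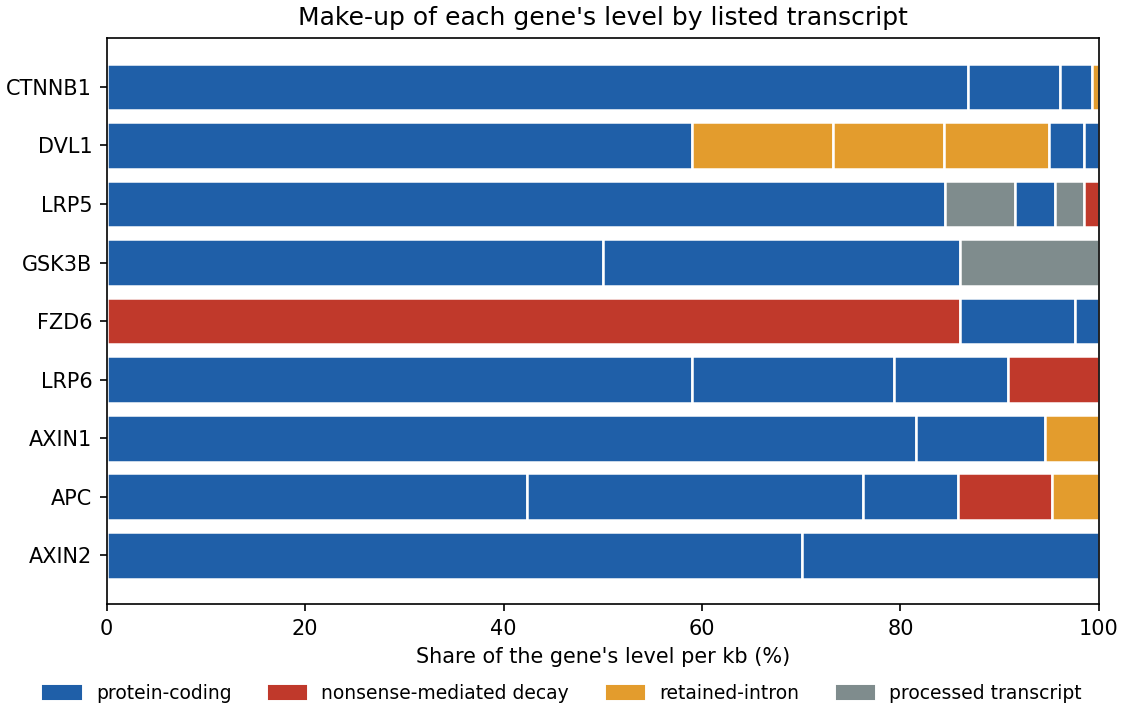
Share of each gene's level per kb (horizontal axis, %) held by each listed transcript, 1 bar per gene and 1 segment per transcript, colored by the class the table gives. CTNNB1, LRP5 and AXIN1 are mostly 1 protein-coding transcript (86.8%, 84.4% and 81.5%), FZD6 is mostly a nonsense-mediated-decay transcript (86.0%), and DVL1 holds 3 retained-intron segments.

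Across the 9 genes, 22 of the 35 transcripts were protein-coding, 6 retained-intron, 4 nonsense-mediated-decay and 3 processed. The protein-coding part, 62.9%, was close to the 60.4% of the whole table. The leading transcript held a median of 70.1% of the gene level, against 60.2% over the 9608 genes with a protein-coding row and 2 or more rows. In release 44, 34 of the 35 transcripts were found, 20 of them with the same length.

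The rest of the pathway was examined with 105 genes in 10 lists by role, of which 70 had a row and 32 were above the median gene. All 8 Wnt ligands with a row, of 19, were below it, the highest being WNT5B at 107, WNT5A at 87.2 and WNT3 at 71.6 reads per kb. WLS, which carries Wnt proteins to the cell surface, was at 442. The receptors LRP5 and RYK (479) were above all of the ligands, while FZD6 was above them with all transcripts and below WNT5B, WNT5A and WNT3 with protein-coding transcripts alone (43.5). Of 16 receptor genes, 13 had a row and 6 were above the median gene.

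Around the ligands, the inhibitor DKK1, which blocks LRP5 and LRP6, stood out with 4614 reads per kb and percentile 99.1. It was above every other gene of the 10 lists, and protein-coding transcripts alone gave it 2155. DKK3 was at 118 (70.5 over protein-coding transcripts alone) and KREMEN1, a DKK1 receptor, at 86.6, while 10 of the 14 inhibitor genes had no row. Of the R-spondin axis, the R-spondin receptor LGR4 was at 210, and the receptor ubiquitin ligases ZNRF3 and RNF43 were at 55.6 and 2.81. None of the 4 R-spondin ligands had a row.

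All 12 genes of the destruction complex list had a row, and 7 were above the median gene. CSNK1A1, the casein kinase that primes β-catenin, was at 1244 reads per kb, GSK3A at 618 (350 over protein-coding transcripts alone) and FBXW11, a ubiquitin ligase subunit that recognises marked β-catenin, at 527. Among catenins and cadherins, CTNNA1 (α-catenin) was at 1253, CDH11 at 983 and JUP (γ-catenin) at 249. CTNNB1 was 4.96 times the level of its paralog JUP. It was near its partner α-catenin with all transcripts, but over protein-coding transcripts alone CTNNA1 was at 820 and CTNNB1 at 1228. CDH1 (E-cadherin), the epithelial partner of both, had no row.

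At the nuclear end, the DNA-binding factors were low where listed. LEF1 was at 24.1 and TCF7L1 at 17.1 reads per kb. TCF7 and the core gene TCF7L2 had no row, so their levels are not known here. Of their partners, the co-repressor AES was at 1172, BCL9L at 603 and PYGO2 at 278. Over protein-coding transcripts alone AES was at 364, below BCL9L at 381. Of 16 feedback and target genes 13 had a row and 4 were above the median gene, namely DKK1, CCND1 (cyclin D1) at 2443, MYC at 1141 and CD44 at 427. The other 9 were below it, from ZNRF3 at 55.6 down to NKD1 at 0.592, with AXIN2 among them.

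**Figure D4:**
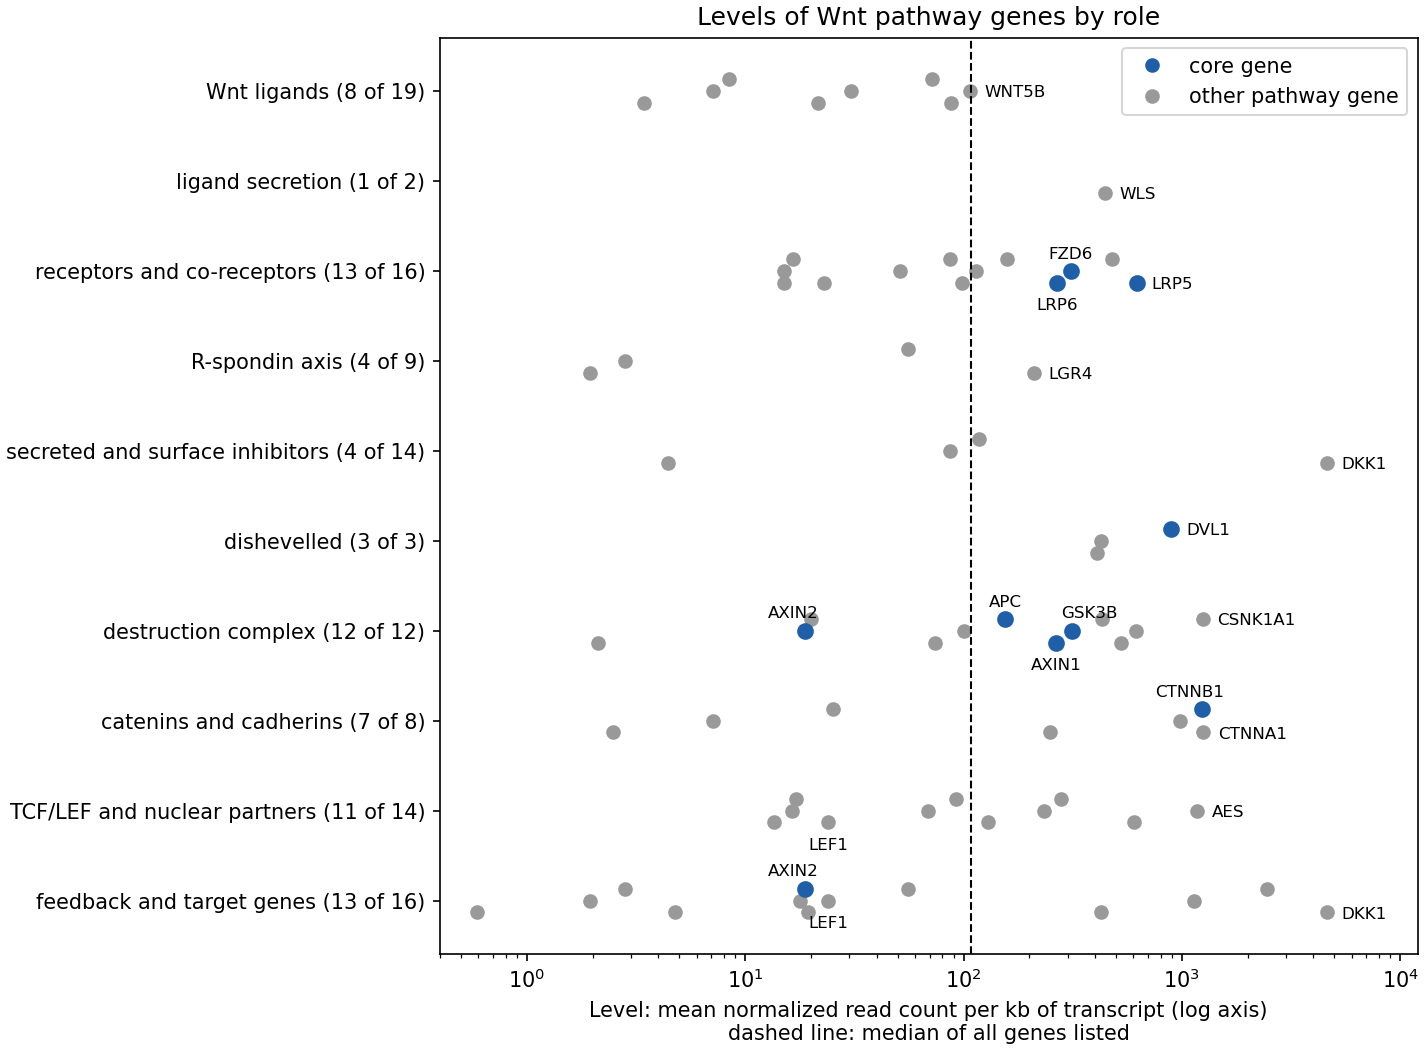
Level of each Wnt pathway gene with a row (mean normalized read count per kb of transcript, log axis) by role, with the number of genes with a row out of the number in the list beside each role. Core genes are blue and other genes gray, and the dashed line is the median of all genes, 108. DKK1 (4614) is the highest, all 8 ligands lie left of the line, and AXIN2 (18.9) lies with the low target genes.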

How the data were processed

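Libraries of mRNA (TruSeq) came from MDA-MB-231 cells kept for 24 h in DMSO or in 10 µM KH-3, 2 libraries per group. Group and replicate come from the sample labels. The authors mapped reads with STAR to GENCODE release 24 transcripts (hg38), counted them per transcript with eXpress and normalized them in DESeq2; tool versions are not given in the sources used here. From the deposited table only the mean normalized read count was used, a signal averaged over libraries by the authors. Its other 3 measured columns hold the authors' comparison of KH-3 with DMSO (log2 fold change, p-value and q-value) and were not used, so the differential test planned for values per library was not run. Each mean normalized read count was divided by transcript length in kb and summed per gene symbol. Percentiles are over all 15113 genes, or over the 12120 genes with a protein-coding row where protein-coding transcripts alone were counted. Gene positions, exons and 3′UTRs were read from GENCODE release 44 (hg38), matched by transcript ID without version. The computations were tested on simulated data. Named are the members and the 3 highest genes of each pathway list. The members, pathway lists and alternatives were chosen with earlier results of these data known. LEF1, TCF7L1, JUP, FZD1, FZD2, FZD4, FZD7, NKD1, CD44 and the cell line markers were named after their values were seen. Software was Python 3.11.15, numpy 2.4.6, pandas 2.3.3 and matplotlib 3.10.9.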

Additional observations from a re-analysis of the deposited data

How the results depend on the processing

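All values are 1 mean per transcript, so no error can be given and no library could be left out. No paired analysis was possible because the table used here holds no values per library. The alternatives that need them, another count tool, another filter on counts per library and leaving out each replicate, were not run for the same reason. The median level of the 9 genes, 310 reads per kb, was 252 with protein-coding transcripts only, 328 with 200 bases taken off each length and transcripts of 300 bases or less left out, 271 with a mean normalized read count of 20 or more, and 217 with the transcript of the largest mean normalized read count alone. Their median percentile of 74.6 was 70.6 with protein-coding transcripts only, among the 12120 genes with such a row. The median share of the leading transcript, 70.1%, was 77.1% by reads without length and 82.5% among protein-coding transcripts. Of 36 single-gene levels under alternatives, 30 lay within 1.5 times the reported one; the other 6 were all lower. With protein-coding transcripts only these were FZD6 at 43.5 in place of 310 and DVL1 at 573 in place of 895. With the largest transcript alone they were DVL1 at 528, LRP6 at 159 in place of 269, GSK3B at 113 in place of 315 and APC at 65.7 in place of 155. The 35 transcripts became 27 at a mean of 20 or more. AUUUA was found in 3 of the 4 genes whose transcript has equal length in both releases, since fewer genes enter.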
